A study of Mus musculus with 8 samples.

Results

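The CC chemokine genes described here are Ccl2, Ccl3, Ccl4, Ccl5, Ccl7, Ccl8, Ccl9, Ccl11 and Ccl20, 9 of the 22180 genes measured. They were matched by gene symbol to probe sets annotated with 1 symbol, and each of the 9 had a single probe set. RNA levels were read on 8 microarrays. Ad-Zip8 cells (4 arrays) were infected with an adenovirus that expresses the zinc transporter ZIP8, and Ad-null control cells (4 arrays) with a null adenovirus. Both groups were primary articular chondrocytes, the cells of joint cartilage, from wild-type ICR mice 5 days old, grown as a monolayer in serum and harvested 24 h after infection, so both had met an adenovirus. The labels call the arrays biological replicates but do not say whether cultures came from separate animals, so each p-value rests on the spread among these 8 arrays, which may be partly technical.

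CC chemokines are small secreted proteins whose first pair of conserved cysteines stand side by side. They bind G protein-coupled receptors on leukocytes and draw these cells along a gradient. Connective tissue cells, chondrocytes among them, are known to make several of them after interleukin-1 or tumour necrosis factor, through NF-kappa B, AP-1 and C/EBP transcription factors, and members of the family are found in inflamed joints.

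Levels were log2 values per probe set, made by the authors with RMA per the submitters' processing notes. Array medians lay between 5.04 and 5.11, and values spanned 0.85 to 13.8. Slc39a8, the gene that encodes ZIP8, had levels of 11.16, 10.90, 11.24 and 11.20 on the Ad-Zip8 arrays, against 6.25, 6.27, 6.12 and 6.15 on the Ad-null arrays, which fits the labels. Chondrocyte marker genes were bright in both groups, with mean levels over 16 markers of 11.25 to 11.53 on Ad-Zip8 arrays and 11.92 to 12.01 on Ad-null arrays. The array values hold no detection call and no read depth, and the number of arrays limits the precision.

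Ccl2, Ccl5, Ccl7, Ccl9 and Ccl20 rose in Ad-Zip8 chondrocytes, by 3.07-fold to 16.2-fold, and Ccl3, Ccl4, Ccl8 and Ccl11 did not pass the test in either direction. A gene passed at a Benjamini-Hochberg adjusted p under 0.05, over all genes, in limma's moderated test. By that test 5 of 9 CC chemokine genes were higher and 0 lower, beside 5.48% of all genes higher and 5.12% lower. All 5 were at least 2-fold higher, as were 1.12% of all genes. In all 5 the lowest Ad-Zip8 array lay above the highest Ad-null array, a separation that 7.89% of all genes showed. The median log2 change was 1.62 over the 9 genes and -0.02 over all genes tested.

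**Figure D1:**
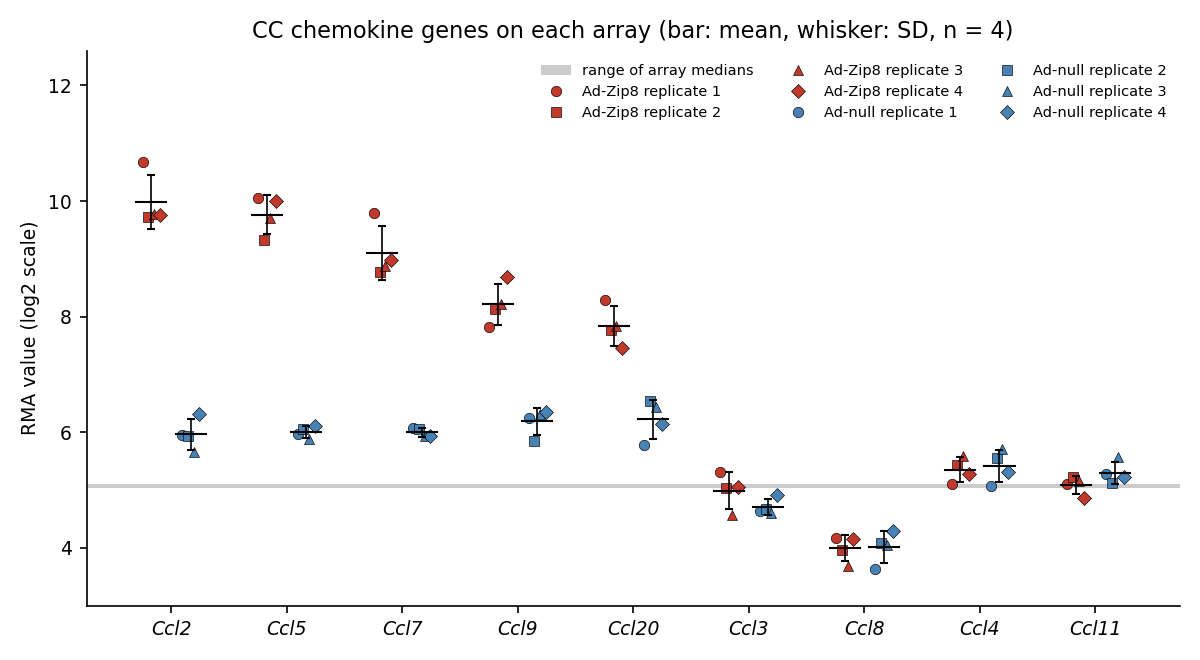
Log2 level of each of the 9 CC chemokine genes on every array, with Ad-Zip8 arrays left of Ad-null arrays, bars at the group means, whiskers of 1 SD (n = 4), a symbol for each replicate and the range of array medians in grey. The 5 genes that rose have no overlap between groups, and the other 4 genes overlap.

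Ccl2, Ccl7, Ccl8 and Ccl11 belong to the monocyte chemoattractant and eotaxin branch of the family. Ccl2, which draws monocytes through the receptor CCR2, had levels of 10.67, 9.72, 9.77 and 9.75 on the Ad-Zip8 arrays, against 5.95, 5.94, 5.66 and 6.31 on the Ad-null arrays. Every Ad-Zip8 array was above every Ad-null array, with 3.40 log2 units between the nearest arrays of the groups, and the first Ad-Zip8 replicate stood above the other three. The mean was 9.98 ± 0.46 in Ad-Zip8 and 5.97 ± 0.27 in Ad-null cells (SD, n = 4 each), a log2 change of 4.01 (SE 0.22, 95% interval 3.53 to 4.50), or 16.2-fold (limma, adjusted p = 5.04e-06). It was the 11th largest increase among all genes tested. Cells were analysed in bulk, so fewer cells of a type and less RNA per cell cannot be told apart, nor can more of either.

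Ccl7, which also signals through CCR2 and further receptors, had levels of 9.79, 8.78, 8.88 and 8.98 on the Ad-Zip8 arrays, against 6.08, 6.05, 5.94 and 5.93 on the Ad-null arrays. The groups lay 2.70 log2 units apart at their nearest arrays, and the Ad-null arrays were close together. The means were 9.11 ± 0.46 in Ad-Zip8 and 6.00 ± 0.07 in Ad-null cells, a log2 change of 3.11 (SE 0.19, 95% interval 2.67 to 3.54) or 8.61-fold (limma, adjusted p = 1.14e-05). Ccl7 had the same highest Ad-Zip8 array as Ccl2, replicate 1.

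Ccl8, which in the mouse signals through CCR8, had levels of 4.18, 3.96, 3.69 and 4.16 on the Ad-Zip8 arrays, against 3.63, 4.08, 4.05 and 4.30 on the Ad-null arrays. The groups overlapped fully, and both means lay below the lowest array median. The log2 change was -0.02 (SE 0.15, 95% interval -0.36 to 0.32, limma adjusted p = 0.965). Ccl11, or eotaxin, which draws eosinophils through CCR3, had levels of 5.10, 5.22, 5.16 and 4.87 on the Ad-Zip8 arrays, against 5.27, 5.11, 5.57 and 5.22 on the Ad-null arrays. These overlapped as well, with the lowest array in Ad-Zip8 and the highest in Ad-null. The log2 change was -0.21 (SE 0.11, 95% interval -0.46 to 0.05, limma adjusted p = 0.335).

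Ccl3, Ccl4, Ccl5 and Ccl9 are the macrophage inflammatory protein and RANTES branch, whose receptors include CCR1. Ccl5, or RANTES, which draws T cells, monocytes and eosinophils, had levels of 10.05, 9.32, 9.70 and 9.99 on the Ad-Zip8 arrays, against 5.98, 6.05, 5.88 and 6.11 on the Ad-null arrays. The nearest arrays of the groups were 3.21 log2 units apart. The mean was 9.77 ± 0.33 in Ad-Zip8 and 6.00 ± 0.10 in Ad-null cells, a log2 change of 3.76 (SE 0.15, 95% interval 3.43 to 4.09), or 13.6-fold. Its limma adjusted p, 8.33e-07, was the smallest of the 9 genes.

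Ccl9, a rodent chemokine that signals through CCR1 and is known from osteoclasts and myeloid cells, had levels of 7.81, 8.13, 8.22 and 8.68 on the Ad-Zip8 arrays, against 6.25, 5.85, 6.32 and 6.35 on the Ad-null arrays. The groups did not overlap, and Ad-Zip8 replicate 1 was the lowest of its group here, unlike in Ccl2, Ccl5 and Ccl7. The mean was 8.21 ± 0.36 in Ad-Zip8 and 6.19 ± 0.23 in Ad-null cells, a log2 change of 2.02 (SE 0.18, 95% interval 1.62 to 2.41) or 4.05-fold (limma, adjusted p = 8.85e-05).

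Ccl3, or MIP-1 alpha, had levels of 5.32, 5.03, 4.56 and 5.05 on the Ad-Zip8 arrays, against 4.64, 4.67, 4.61 and 4.91 on the Ad-null arrays. One Ad-Zip8 array, replicate 3, was below all Ad-null arrays, and the other three were above them all. The log2 change was 0.29 (SE 0.15, 95% interval -0.04 to 0.61, limma adjusted p = 0.290), and both group means were below the lowest array median. Without Ad-Zip8 replicate 3 the log2 change was 0.43, past the threshold (limma adjusted p = 0.0424). Ccl4, or MIP-1 beta, had levels of 5.11, 5.44, 5.60 and 5.27 on the Ad-Zip8 arrays, against 5.07, 5.56, 5.70 and 5.32 on the Ad-null arrays. The groups covered nearly the same range. The log2 change was -0.06 (SE 0.15, 95% interval -0.39 to 0.28, limma adjusted p = 0.873).

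Ccl20, which draws Th17 cells and dendritic cells through CCR6, had levels of 8.29, 7.77, 7.83 and 7.46 on the Ad-Zip8 arrays, against 5.78, 6.54, 6.43 and 6.14 on the Ad-null arrays. The groups were apart by 0.93 log2 units at their nearest arrays, the narrowest gap among the genes that rose. The mean was 7.84 ± 0.34 in Ad-Zip8 and 6.22 ± 0.34 in Ad-null cells, a log2 change of 1.62 (SE 0.20, 95% interval 1.18 to 2.06) or 3.07-fold (limma, adjusted p = 6.29e-04).

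**Figure D2:**
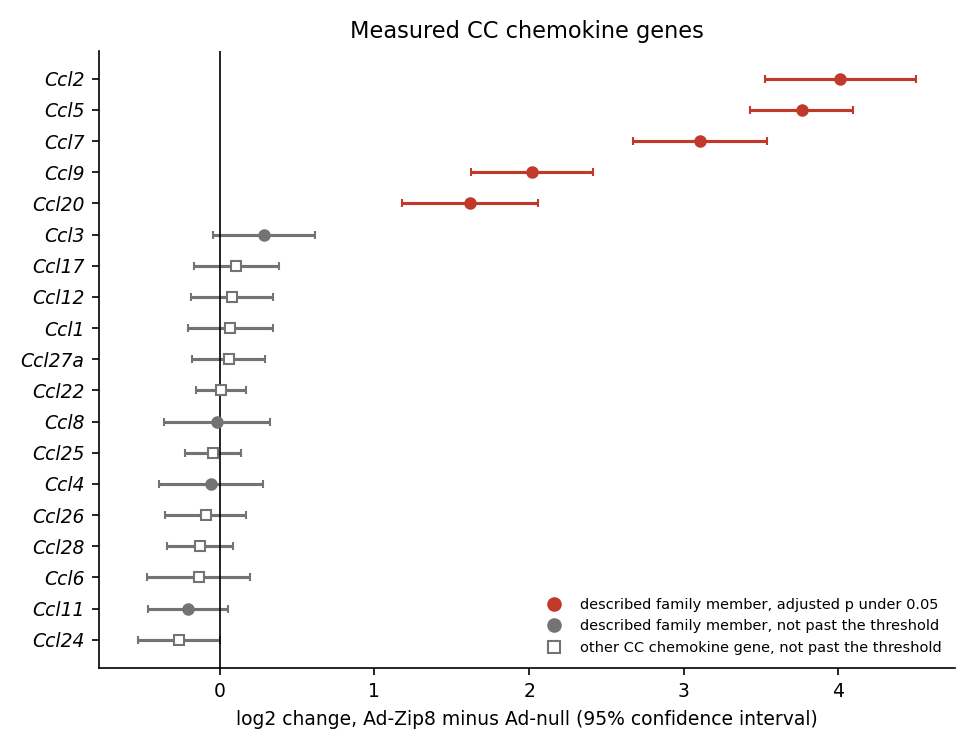
Log2 change, Ad-Zip8 minus Ad-null, of each measured CC chemokine gene with its 95% interval, filled points for the 9 genes described and open squares for the others. Ccl2, Ccl5, Ccl7, Ccl9 and Ccl20 lie between 1.62 and 4.01, and the intervals of the other CC chemokine genes shown include 0.

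In order of their log2 change the genes that rose were Ccl2, Ccl5, Ccl7, Ccl9 and Ccl20. Their Ad-null means were 5.97 to 6.22, with array medians of 5.04 to 5.11. How far background compressed these changes, and so shaped their order, was not tested. Whether neighbours in that order differed was read within each array, as the log2 level of one gene minus that of the next, a quantity that can be compared between groups but not as a level of one gene against another. The difference of Ccl2 minus Ccl5 ran from -0.24 to 0.62 on Ad-Zip8 arrays and from -0.23 to 0.21 on Ad-null arrays. These ranges overlapped, so the changes of Ccl2 and Ccl5 were not separated by the spread between arrays. Ccl5 minus Ccl7 ran from 0.26 to 1.02 on Ad-Zip8 arrays and from -0.10 to 0.17 on Ad-null arrays, and Ccl7 minus Ccl9 from 0.30 to 1.98 on Ad-Zip8 arrays and from -0.42 to 0.20 on Ad-null arrays. In both pairs the ranges were apart, and of these the intervals of the log2 changes overlapped for Ccl5 and Ccl7 but not for Ccl7 and Ccl9. Ccl9 minus Ccl20 ran from -0.48 to 1.21 on Ad-Zip8 arrays and from -0.68 to 0.47 on Ad-null arrays, so that pair was not separated.

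Apart from Ccl20, the genes lie on mouse chromosome 11 in a pair of gene groups, and Ccl20 lies on chromosome 1 outside both groups, by the RefSeq gene table for GRCm38.p6. The first group runs in coordinate order Ccl2, Ccl7, Ccl11, Ccl12, Ccl8 and Ccl1, and the second Ccl5, Ccl9, Ccl6, Ccl3 and Ccl4, with no other protein-coding gene listed between them. In each group the first 2 genes rose and the rest did not pass the test. In the first group the log2 changes were 4.01 for Ccl2 and 3.11 for Ccl7, then -0.21 for Ccl11, 0.08 for Ccl12, -0.02 for Ccl8 and 0.07 for Ccl1. In the second group they were 3.76 for Ccl5 and 2.02 for Ccl9, then -0.14 for Ccl6, 0.29 for Ccl3 and -0.06 for Ccl4. Ccl12 and Ccl1, like Ccl6, were named for their position after their values had been seen. The annotated spans of Ccl3 and Ccl4 overlap, and no source used here gives the strand that the probes read.

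**Figure D3:**
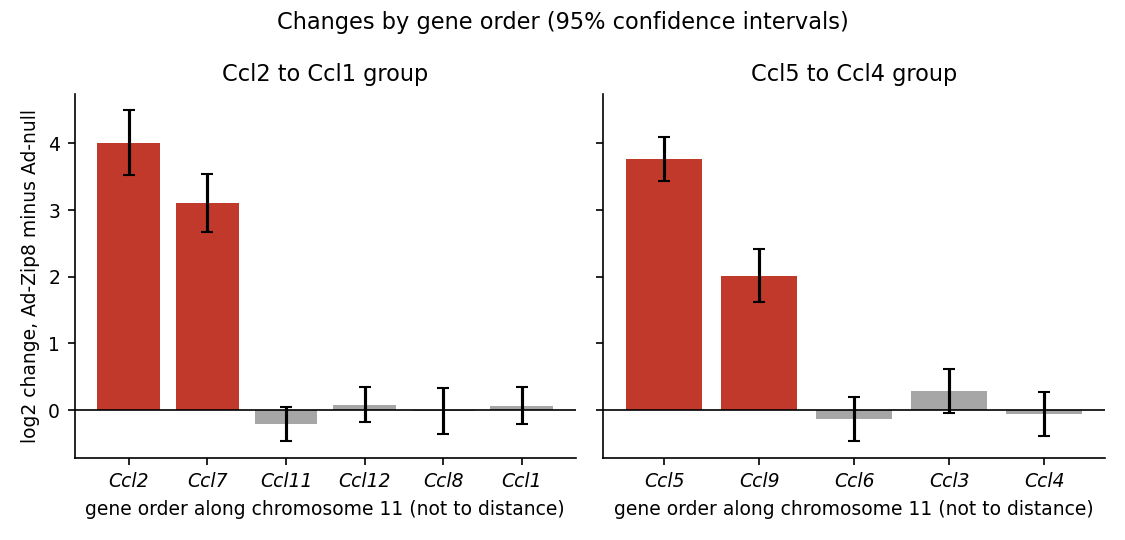
Log2 change, Ad-Zip8 minus Ad-null, with 95% intervals, of the CC chemokine genes, as bars in the order in which they lie in each group on chromosome 11. The change is high at the first 2 genes of each chromosome 11 group and near 0 at the genes that follow.

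Promoter sequence is shown because a window was available for genes that rose, Ccl9 and Ccl20, and for genes that did not pass the test, Ccl3 and Ccl8. The windows are the 250 bases before the annotated start, from RefSeq on GRCm38.p6, read 5′ to 3′ on the strand of the gene. Capitals mark a match to the strict NF-kappa B consensus, the DNA motif bound by that factor. Windows for Ccl2, Ccl4, Ccl5, Ccl7 and Ccl11 were not used here.
Ccl9 (chr11:83578637-83578886, minus strand): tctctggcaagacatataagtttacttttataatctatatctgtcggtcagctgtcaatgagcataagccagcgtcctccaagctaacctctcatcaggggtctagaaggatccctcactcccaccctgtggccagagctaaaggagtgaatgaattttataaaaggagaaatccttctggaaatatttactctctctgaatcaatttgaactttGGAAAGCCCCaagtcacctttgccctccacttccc
Ccl20 (chr1:83116516-83116765, plus strand): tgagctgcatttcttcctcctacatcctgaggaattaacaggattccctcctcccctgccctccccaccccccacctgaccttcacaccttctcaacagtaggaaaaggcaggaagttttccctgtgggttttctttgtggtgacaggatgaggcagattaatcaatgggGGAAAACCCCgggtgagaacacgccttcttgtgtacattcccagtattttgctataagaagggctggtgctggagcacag
Ccl3 (chr11:83649379-83649628, minus strand): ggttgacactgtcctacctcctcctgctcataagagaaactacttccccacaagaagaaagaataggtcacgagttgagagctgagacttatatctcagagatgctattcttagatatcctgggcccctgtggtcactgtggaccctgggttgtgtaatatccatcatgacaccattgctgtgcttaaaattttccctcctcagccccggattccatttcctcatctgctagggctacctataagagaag
Ccl8 (chr11:82114935-82115184, plus strand): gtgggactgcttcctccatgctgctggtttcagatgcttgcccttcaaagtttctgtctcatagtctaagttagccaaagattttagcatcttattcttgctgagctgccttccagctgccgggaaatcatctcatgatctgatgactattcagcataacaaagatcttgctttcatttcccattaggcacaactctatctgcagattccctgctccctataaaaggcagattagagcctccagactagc

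Motifs of NF-kappa B, AP-1, C/EBP, STAT and the metal response factor were searched on both strands. The NF-kappa B consensus matched once in the Ccl9 window, 35 to 26 bases before the start, and once in the Ccl20 window, 80 to 71 bases before the start. It was found in 3.9% of 32851 RefSeq windows of 250 bases. A wider palindromic NF-kappa B pattern, found in 9.55% of windows, matched at the same bases in both. The AP-1 pattern was searched as TGANTCA, with any base allowed at N, and was found in 6.75% of windows. It matched in Ccl9 as TGAATCA, with A at the open position, 53 to 47 bases before the start. The Ccl3 and Ccl8 windows had no match to either NF-kappa B pattern or to TGANTCA. No window of the 4 genes held the C/EBP motif TTGCNNAA (9.56% of all windows), the STAT motif TTCNNNGAA (7.02%) or the metal response motif TGCACNC or TGCGCNC (21.4%). A match describes these letters only, and no match says only that the letters are not in this window.

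Of 15 further CC chemokine genes 10 were measured, and 0 passed limma's test in either direction (0 at an unadjusted p under 0.05). Over all 22180 genes, 5027 had an unadjusted p under 0.05 in that test. The widest of these was Ccl24, eotaxin-2, with a log2 change of -0.26 (adjusted p = 0.222), followed by Ccl6 at -0.14 (adjusted p = 0.661). Their median log2 change was -0.02, equal to that of all genes, and the highest was 0.11. For 6 of the 10 both group means lay below the lowest array median, where background compresses differences on the array. Ccl19, Ccl21a, Ccl21b, Ccl21c and Ccl27b were not analysed here.

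None of the 10 measured CC chemokine receptor genes passed limma's test. Of the 10, 2 had an unadjusted p under 0.05, beside 5027 of all 22180 genes. Their median log2 change was 0.05. Ccr9, the receptor of Ccl25, had a log2 change of 0.43 (SE 0.12, limma adjusted p = 0.0512) and passed when arrays were centred on their medians (0.44, adjusted p = 0.0382). Ccr4, the receptor of Ccl17 and Ccl22, had a log2 change of 0.32 (limma adjusted p = 0.128) and passed without Ad-Zip8 replicate 3 (0.41, adjusted p = 0.0423). The receptors of the chemokines that rose were picked for that role after their values had been seen. Ccr2, for Ccl2 and Ccl7, had a log2 change of -0.05, Ccr1, for Ccl5 and Ccl9, one of 0.03, and Ccr6, for Ccl20, one of 0.07. For 8 of the 10 receptors both means were below the lowest array median. Of the 5 atypical receptor genes, whose products take up or hold chemokines without G protein signalling, 0 passed (1 at an unadjusted p under 0.05). Ccrl2 had a log2 change of -0.32 (limma adjusted p = 0.252) and Ackr3 one of 0.22 (limma adjusted p = 0.127).

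The ligands of the other chemokine classes were set beside the CC genes. Of 17 measured CXC, CX3C and XC ligand genes, 7 rose and 0 fell, with a median log2 change of 0.25. When single arrays were left out, 6 to 7 rose. The Cxcl15 call was lost without Ad-Zip8 replicate 1 or 2 or Ad-null replicate 1 or 3. It was also lost with all probe sets fitted (limma adjusted p = 0.0709), and Cxcl15 was not tested when dim genes were left out. The neutrophil attractants Cxcl3, Cxcl5 and Cxcl1 had log2 changes of 5.82 (SE 0.28), 5.43 (SE 0.16) and 3.81 (SE 0.18), and Cxcl2 one of 1.62 (SE 0.27). Cx3cl1, fractalkine, rose by 0.78 (SE 0.10).

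The cytokines known to induce CC chemokines changed in 2 of 12 cases. Il6, interleukin-6, had a log2 change of 1.92 (SE 0.25, limma adjusted p = 8.00e-04). Tnf, tumour necrosis factor, had one of 0.38 (SE 0.10, limma adjusted p = 0.0356). The Tnf call was lost without any one of 7 arrays, all but Ad-null replicate 4 (adjusted p = 0.0503 to 0.0907), and with all probe sets fitted (adjusted p = 0.0921). Il1a and Il1b, the interleukin-1 genes, picked for that role after their values had been seen, had log2 changes of -0.08 and 0.04. Il1a averaged 3.14 in Ad-Zip8 and 3.22 in Ad-null cells, and Il1b 3.37 and 3.33. They are 2 of the 7 cytokine genes, of 12, with both group means below the lowest array median, where differences are compressed.

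Receptors and adaptors of these cytokines and of bacterial products rose in 12 of 18 cases and fell in 0, with a median log2 change of 0.66. Without single arrays, 11 to 12 rose. Il1rap lost its call when its probe sets were averaged (log2 change 0.30, limma adjusted p = 0.116). Tlr3 lost its call without Ad-Zip8 replicate 1 or 2 or Ad-null replicate 3 or 4, and with all probe sets fitted. Il17ra passed, as higher, with dim genes left out and with a variance trend. Osmr, the oncostatin M receptor, rose by 1.08 (SE 0.06), and Il1r1, the interleukin-1 receptor, by 1.32 (SE 0.09). The Toll-like receptors Tlr2 and Tlr4 rose by 1.48 (SE 0.12) and 1.01 (SE 0.10), and their co-receptor Cd14 by 1.39 (SE 0.15). Transcription factors of chemokine genes, listed together with inhibitors of NF-kappa B, rose in 16 of 22 cases and fell in 0, with a median of 0.49. When single arrays were left out, 13 to 16 rose. Cebpd and Cebpb, of the C/EBP family, rose by 2.57 (SE 0.11) and 1.39 (SE 0.09). Nfkbiz and Bcl3, nuclear cofactors of NF-kappa B, rose by 2.36 (SE 0.11) and 2.24 (SE 0.11), and Junb, an AP-1 subunit, by 1.16 (SE 0.08). Picked after their values had been seen, the inhibitor gene Nfkbia rose by 1.17 (SE 0.11), and Rela and Jun did not pass. Rela and Jun, at 0.05 and 0.12, were among the 6 genes of this list that were not called.

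Among 12 genes whose products set how long chemokine mRNA lasts, 4 rose and 0 fell. Zc3h12a, which encodes the RNase regnase-1 that cuts inflammatory mRNAs, rose by 1.98 (SE 0.18). Arid5a, known to stabilise Il6 mRNA, rose by 0.90 (SE 0.09), and Zfp36l1 and Zfp36l2, of the mRNA-destabilising tristetraprolin family, by 0.88 (SE 0.11) and 0.62 (SE 0.10). Of 12 protease genes whose products are known to trim chemokines, 6 rose and 0 fell. Mmp3 rose by 5.99 (SE 0.27), Mmp13 by 4.41 (SE 0.24), Mmp9 by 2.20 (SE 0.19), Mmp12 by 1.98 (SE 0.15) and Mmp2 by 0.67 (SE 0.09), all matrix metalloproteinases. These arrays measure RNA, so neither chemokine protein nor its trimming was measured.

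**Figure D4:**
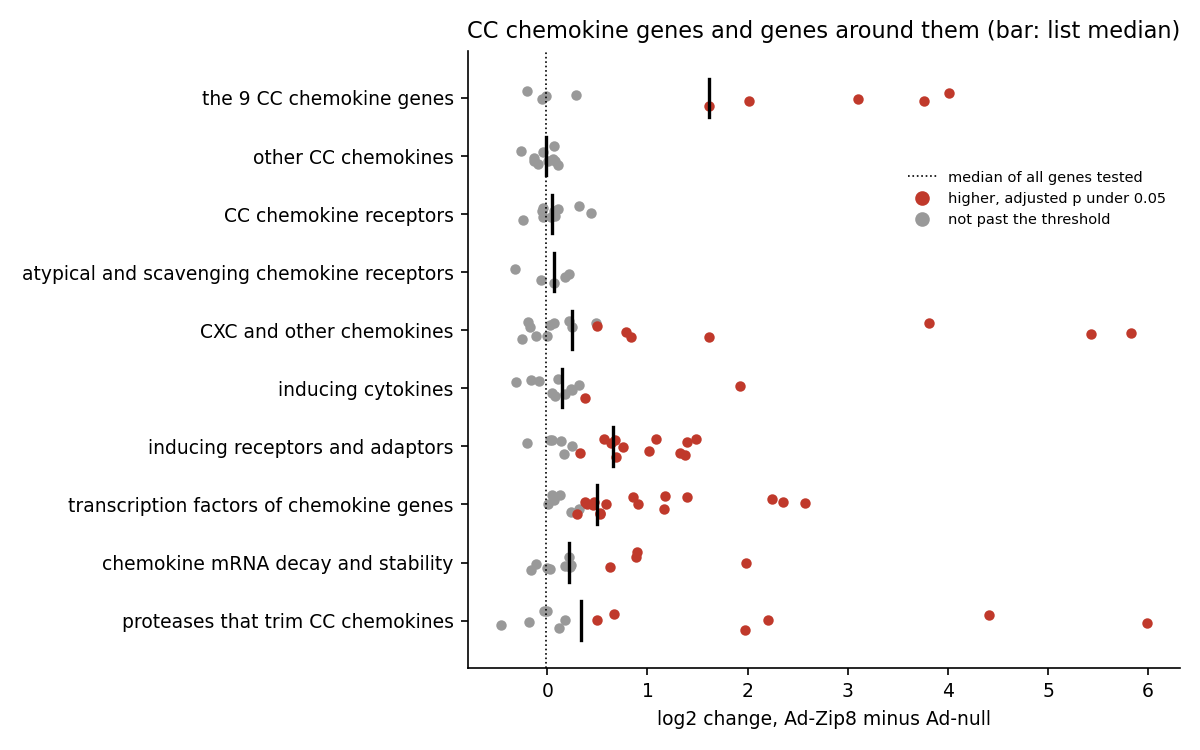
Log2 change, Ad-Zip8 minus Ad-null, of the genes of each list, 1 point a gene, with a bar at the list median and a dotted line at the median of all genes. The 9 CC chemokine genes split into 5 points from 1.62 to 4.01 and 4 points near 0, while the other CC chemokines and the CC receptors lie between -0.26 and 0.43.

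The genes whose pattern over the 8 arrays was most like that of each gene that rose were found by the root mean square difference of log2 values, each gene centred on its own mean. Because the likeness follows the group difference, it mainly finds genes of like change. For Ccl2 these were Cxcl1 (0.198 log2 units), Cfb (0.239) and Slpi (0.254), and for Ccl5 they were Cfb (0.131), Slpi (0.205) and Saa4 (0.246). Cfb, complement factor B, and Slpi, a secreted protease inhibitor, thus stood near both. For Ccl7 the nearest were Bst1 (0.168), Hspa1b (0.198) and Xdh (0.200), for Ccl9 Tmem255a (0.177), Serpina3n (0.264) and Casp4 (0.272), and for Ccl20 Arg2 (0.237), Tnip3 (0.256) and Tent5c (0.257). Among the genes that rose, Ccl2 and Ccl5 were the most alike (0.286) and Ccl2 and Ccl20 the least (1.24).

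Arrays of a group differed in which CC chemokine genes were high. Ad-Zip8 replicate 1 was the highest Ad-Zip8 array for 6 of the 9 genes, including Ccl2, Ccl5, Ccl7 and Ccl20, and the lowest for Ccl4 and Ccl9. Its chondrocyte marker mean was 11.25, below the 11.47 to 11.53 of the other Ad-Zip8 arrays, while its Slc39a8 level of 11.16 was not the highest of the group. What these array differences reflect was not tested. Without Ad-Zip8 replicate 1 the number of CC chemokine genes that rose was still 5.

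Markers of cells other than chondrocytes that make CC chemokines were read in the same fit. Macrophage and monocyte markers had mean levels of 4.83 to 4.89 on Ad-Zip8 arrays and 4.78 to 4.95 on Ad-null arrays, with 1 of 16 higher (Cd68, log2 change 0.83) and 1 lower (Laptm5, -0.72). For 9 of these 16 markers both group means lay below the lowest array median, and others lay above it in both groups. Cx3cr1, C1qa and Csf1r, picked after their values had been seen, averaged 5.89, 5.39 and 5.22 in Ad-Zip8 cells, against 5.91, 5.43 and 5.30 in Ad-null cells. Among the defining genes, Ptprc, the pan-leukocyte CD45 gene, and Adgre1, the F4/80 gene, both of the dim ones, were below the lowest array median on every array, at 2.83 to 3.37 and 4.00 to 4.37 on Ad-Zip8 arrays and 3.23 to 3.46 and 3.80 to 4.42 on Ad-null arrays. T and NK cell markers averaged 4.30 to 4.49 on Ad-Zip8 and 4.30 to 4.44 on Ad-null arrays, with 0 of 11 called.

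Neutrophil markers averaged 4.17 to 4.31 on Ad-Zip8 and 3.97 to 4.25 on Ad-null arrays, with 1 of 11 higher, Camp (log2 change 0.60, limma adjusted p = 0.0425, or 0.0697 with the replicate number as a block). The Camp call was also lost without Ad-Zip8 replicate 1, 3 or 4 or Ad-null replicate 1 or 4 (adjusted p = 0.0994 to 0.112), with arrays quantile normalized again (0.0538) and with all probe sets fitted (0.107), and Camp was not tested when dim genes were left out. Mast cell and eosinophil markers averaged 3.85 to 3.95 on Ad-Zip8 and 3.69 to 3.88 on Ad-null arrays, with 0 of 8 called. Kit, a growth factor receptor of mast cells named here after its values had been seen, had a log2 change of 0.57 (limma adjusted p = 0.0673) and passed with dim genes left out (adjusted p = 0.0325), with a variance trend (adjusted p = 0.0328) and without Ad-Zip8 replicate 2 (0.71, adjusted p = 0.0205). Osteoclast markers averaged 5.03 to 5.13 on Ad-Zip8 and 4.87 to 5.07 on Ad-null arrays, with 0 of 7 called, and endothelial markers 4.78 to 4.91 on Ad-Zip8 and 4.70 to 4.83 on Ad-null arrays, with 0 of 8 called. Chondrocyte markers fell in 13 of 16 cases, by a median of 0.54 on the log2 scale over all 16. When single arrays were left out, 10 to 13 fell. Comp, Col11a1 and Cnmd lost their calls with all probe sets fitted (limma adjusted p = 0.0662 to 0.108), and Cnmd with arrays centred on their medians (0.0594). Col2a1 passed, as lower, with dim genes left out and with a variance trend, and Sox9 with a variance trend. Fibroblast and synovium markers averaged 9.29 to 9.55 on Ad-Zip8 and 9.04 to 9.35 on Ad-null arrays. Of 9, 3 rose (Lum 0.93, Pdgfra 0.86, Dcn 0.70) and 2 fell (Pdgfrb -0.42, Col1a2 -0.38). The Col1a2 call was lost without Ad-Zip8 replicate 2 or 3 or Ad-null replicate 1, 2 or 4 (adjusted p = 0.0523 to 0.0627), with arrays quantile normalized again (0.0580) and with all probe sets fitted (0.0618), while its log2 change in these fits stayed between -0.38 and -0.33. The part of these cells in the CC chemokine levels was not tested.

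**Figure D5:**
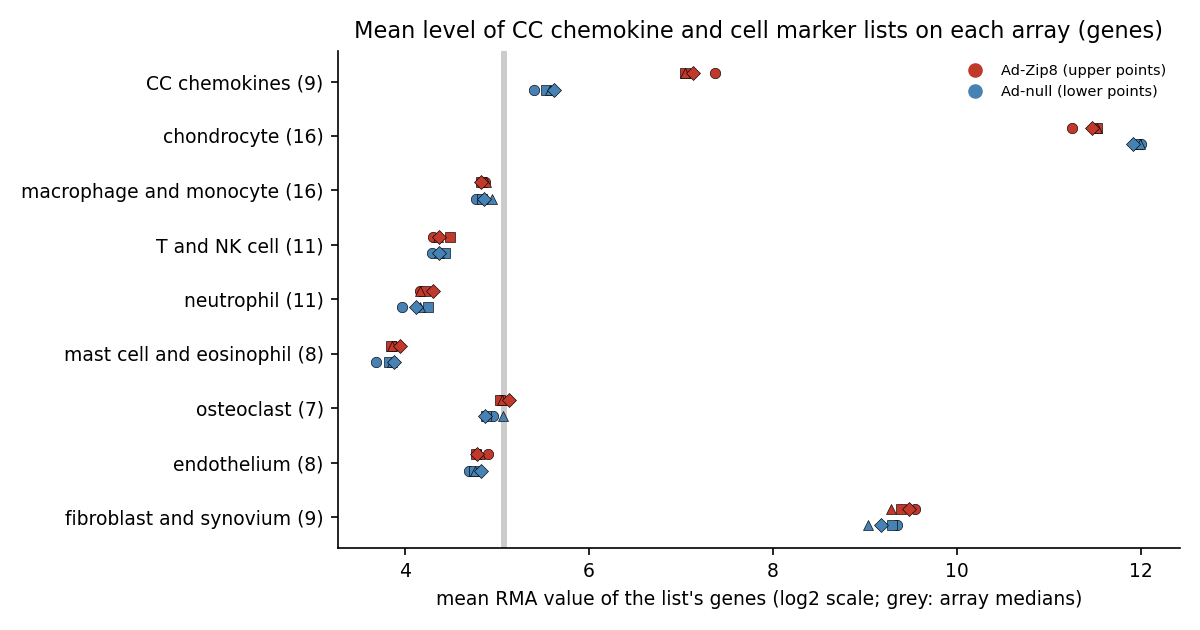
Mean log2 level of each cell marker list and of the 9 CC chemokine genes on every array, with Ad-Zip8 arrays drawn above Ad-null arrays and the range of array medians in grey. The leukocyte lists stay at similar levels in both groups, while the CC chemokine mean is 7.04 to 7.37 on Ad-Zip8 arrays and 5.40 to 5.62 on Ad-null arrays.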

How the data were processed

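Total RNA of 8 cultures was hybridised to microarrays after biotin labelling with a whole-transcript kit, per the labels' protocols. The deposited values are log2 levels per probe set. The submitters' processing notes name RMA as the authors' method, which subtracts background, forces arrays to a common distribution and summarises probes, so differences of dim genes are compressed. RMA's version, the probe set annotation and the build behind the array are not given in these sources.

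Of 41345 probe sets, 23521 had 1 gene symbol, 1814 had more than 1 and stay unnamed, and 16010 were unlisted. Of the probe sets with 1 symbol, 23328 had an Entrez identifier found in the RefSeq table, which changed 0 symbols. Where 1082 genes had more than 1 probe set, the brightest by its mean over the arrays stood for the gene, giving 22180 genes. Ad-Zip8 minus Ad-null differences were tested two-sided in limma (version 3.58.1, under R version 4.3.3) with lmFit and eBayes, no covariates and no filter, and Benjamini-Hochberg adjustment over all genes and a threshold of 0.05. All adjusted p-values, and intervals at 95%, come from this fit unless stated, and intervals are not adjusted. The fitting was tested on simulated data.

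The 9 genes and the 18 lists were chosen with earlier results of these data known, and their counts are descriptions. Named were the 9 genes, called genes of the CC ligand, CC receptor and atypical receptor lists with 2 uncalled ones each, up to 5 called genes of each other list, defining cell markers, Slc39a8 and the 3 genes most like each of the 9 that rose at least 2-fold. Both groups carry replicate numbers 1 to 4. Deviations from group means correlated at 0.11 to 0.37 between same-numbered arrays and at -0.27 to 0.16 between others, so an alternative fit treats equal numbers as pairs, through a replicate block. That pairing comes from the data, not from the labels. The other alternatives were renormalization, median centring, a filter on dim genes, a variance trend, other probe set rules and leaving out each array. The labels name no batch.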

Additional observations from a re-analysis of the deposited data

Results flagged for a closer look

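Within each group of 4 arrays, the highest or lowest array was compared with its nearest neighbour by Dixon's gap ratio. Of 134 such comparisons over 67 named genes 11 passed, of which 1 of 18 was in a CC chemokine gene. Chance gives about 1 in 20. Ccl2 was 10.67 on Ad-Zip8 replicate 1, apart from the nearest Ad-Zip8 array at 9.77, and all 4 Ad-Zip8 arrays were above the Ad-null arrays.

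The same array stood above its group for Cxcl5 (11.91), Junb (8.32) and, among the genes whose pattern resembled Ccl7 or Ccl20, for Xdh (8.23), Arg2 (7.34) and Tnip3 (6.91). Ccl7 and Ccl20 were themselves highest on that array. Xdh, Arg2 and Tnip3 were named for their likeness to them, so their high values there were partly fixed by that choice. Ad-Zip8 replicate 2 was low for Dcn (12.63). In the Ad-null group, replicate 3 was low for Cd14 (5.12) and Col1a2 (10.24), replicate 2 was low for Slpi (6.63) and replicate 1 was high for Serpina3n (10.58).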

How the results depend on the processing

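Ccl2, Ccl5, Ccl7, Ccl9 and Ccl20 stayed past the threshold of limma's test in all 15 alternatives, with log2 changes of 3.78 to 4.13, 3.67 to 3.91, 2.88 to 3.22, 1.86 to 2.15 and 1.47 to 1.74, and 5 to 6 of the 9 genes were higher when single arrays were left out. The 6th was Ccl3, whose log2 change ran from 0.18 to 0.43 and passed only without Ad-Zip8 replicate 3. Ccl4 ran from -0.17 to 0.040 and Ccl8 from -0.14 to 0.086 in those fits, changing sign, and neither passed in any. Ccl3 and Ccl8 were not tested when dim genes were left out. With the replicate block 5 of the 9 genes were higher, with an adjusted p of 2.18e-04 for Ccl2 and 0.00586 for Ccl20. Of all genes 1278 were higher and 1059 lower in that fit. The block ended the call of Camp and that of Comp, a chondrocyte marker (log2 change -0.33, limma adjusted p = 0.0503). CC receptors higher were 1 with arrays centred on their medians (Ccr9) and 0 to 1 without single arrays. Inducing cytokines higher were 1 with dim genes left out, where Il6 was not tested and Tnf passed, 1 with all probe sets fitted, where Tnf lost its call, and 1 to 2 without single arrays. Proteases lower were 1 (Cpm) with dim genes left out, with a variance trend and with the replicate block, and 0 to 1 without single arrays. Over all genes, 614 were lower with all probe sets fitted. Without single arrays 708 to 923 were lower, with 708 without Ad-Zip8 replicate 1 and 721 without Ad-null replicate 1, and 924 to 1119 were higher. These fits had fewer arrays or more rows to adjust for. Other causes were not tested. Signal over background limits the genes near or below the array medians, where a change that failed the test may have been too small to see.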
